A study of Homo sapiens with 4 samples.

Results

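Expression of 10 genes for chaperones and folding enzymes of the endoplasmic reticulum (ER) was examined in ovarian cancer cells with and without TET1 overexpression. The members were chosen by gene symbol, namely HSPA5, HSP90B1, PDIA4, PDIA6, CALR, DNAJB9, DNAJC3, SDF2L1, XBP1 and HERPUD1, and all 10 were found among the 26506 genes of the deposited tables. The libraries came from 2 human ovarian cancer cell lines, HeyC2 and SKOV3. In each line, cells transfected with the pCMV6/TET1 plasmid (genotype label "TET1 overexpressed") were compared with cells that received the empty plasmid (genotype label "Wild-type"), and all cells were kept under Geneticin selection. TET1 is a methylcytosine dioxygenase that oxidises 5-methylcytosine in DNA. Whether the selected cells were clones or pools is not given in the sources used here. Each condition had 1 library, 4 in all, so no difference within a line has a replicate check, and a test was possible only over both lines, with the lines as pairs. In bulk RNA, fewer cells that express a gene and less RNA per cell cannot be told apart.

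The ER is where secreted and membrane proteins are folded. HSPA5 (BiP) is the Hsp70 chaperone of its lumen, and it is helped by J-domain cochaperones such as DNAJC3 and DNAJB9. HSP90B1 (GRP94) is the Hsp90 chaperone of the ER, calreticulin (CALR) is a calcium-binding lectin chaperone of glycoproteins, and PDIA4 and PDIA6 form and rearrange disulphide bonds. When unfolded proteins accumulate, the sensors ATF6, IRE1 (ERN1) and PERK (EIF2AK3) start the unfolded protein response. ATF6 and the spliced form of XBP1, a transcription factor, then raise transcription of chaperone genes through ER stress response elements (ERSE) in their promoters, and PERK acts through translation and ATF4.

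Since ERSE are the known link between these genes, the promoter windows of the members were searched for them, and the stretches that hold a match are shown. The RefSeq windows span 250 bases before to 50 bases after each transcription start. The RefSeq table gives them on GRCh38.p14, and all 13 windows of the 10 members were placed on GRCh37, the build of the files, by a single exact match. The ERSE was searched as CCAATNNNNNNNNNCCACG and the ERSE-II as ATTGGNCCACG, each on both strands. Only exact matches were counted, so an element that deviates from these patterns or lies outside the windows would be missed. These motifs share the CCACG part, and no stretch in the member windows was counted under both. Capitals mark the matched element, and each sequence runs 5′ to 3′ on the strand of its gene.

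HSPA5 (chr9:128003645-128003713, minus strand): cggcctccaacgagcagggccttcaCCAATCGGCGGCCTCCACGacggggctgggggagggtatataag
HSP90B1 (chr12:104323969-104324142, plus strand): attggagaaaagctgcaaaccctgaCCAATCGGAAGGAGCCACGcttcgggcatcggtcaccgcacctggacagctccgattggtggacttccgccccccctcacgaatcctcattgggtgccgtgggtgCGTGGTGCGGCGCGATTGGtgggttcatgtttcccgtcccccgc
PDIA6 (chr2:10952954-10953022, minus strand): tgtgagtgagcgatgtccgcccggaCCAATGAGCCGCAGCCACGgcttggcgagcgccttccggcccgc
CALR (chr19:13049173-13049241, plus strand): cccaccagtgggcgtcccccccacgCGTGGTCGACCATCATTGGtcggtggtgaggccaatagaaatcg
XBP1 (chr22:29196566-29196634, minus strand): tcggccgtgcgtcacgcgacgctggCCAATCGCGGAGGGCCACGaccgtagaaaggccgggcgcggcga
SDF2L1 (chr22:21996378-21996438, plus strand): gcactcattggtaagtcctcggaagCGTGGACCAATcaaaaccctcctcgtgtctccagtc
HERPUD1 (chr16:56965912-56965972, plus strand): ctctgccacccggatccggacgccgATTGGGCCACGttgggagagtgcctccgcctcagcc

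Of the 10 members, 5 had an ERSE (HSPA5, HSP90B1, PDIA6, CALR and XBP1) and 2 had an ERSE-II (SDF2L1 and HERPUD1). HSP90B1 had 2 ERSE, 1 on each strand. The elements ended between 34 bases (XBP1) and 207 bases (CALR) before the transcription start. In HSP90B1, CALR and SDF2L1 the element nearest the start was read on the strand opposite to the gene. Over all promoters, 27 of 35116 windows (0.0769%) held an ERSE and 19 (0.0541%) an ERSE-II. No match was found in the windows of PDIA4 (gene at chr7:148700154-148725754, GENCODE on GRCh37), DNAJB9 (chr7:108210311-108215294) and DNAJC3 (chr13:96329393-96447242). The UPRE, searched as TGACGTGG, was in 256 windows (0.729%) and in none of the 13 windows of the members.

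**Figure D1:**
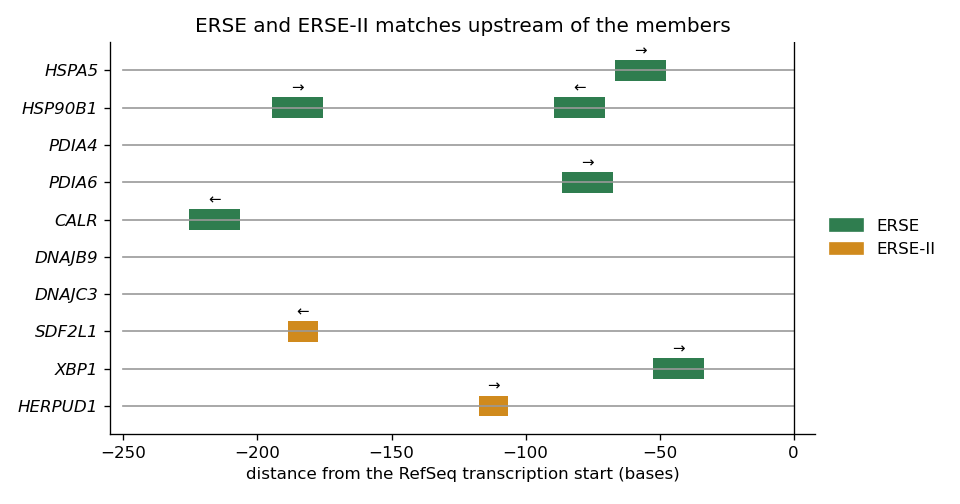
Position of ERSE (green) and ERSE-II (orange) matches in the 250 bases before the RefSeq transcription start of each member, with arrows for the strand relative to the gene; for PDIA4, PDIA6 and XBP1, which have 2 windows each, distances are from the start of the window that holds the match. PDIA4, DNAJB9 and DNAJC3 have no exact match in their windows, and the HSPA5 and XBP1 elements lie nearest the start, ending 48 and 34 bases before it.

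The values of the files are FPKM (fragments per kilobase of transcript, scaled to the mapped fragments of the library). The TET1 columns had been multiplied by 1 constant per line, 3.23 in HeyC2 and 1.35 in SKOV3, that makes the FPKM of GAPDH equal in TET1 and control. FPKM of TET1 libraries are therefore given here after division by this constant, unless called deposited. Each change is the log2 ratio of the deposited FPKM with 1 added to each, minus the median of this quantity over all genes that averaged 1 FPKM or more in the line. That median was 1.61 over 12993 genes in HeyC2 and 0.59 over 13339 genes in SKOV3. A relative change of 0 thus means a gene whose log2 ratio equals that of the median gene. The 1 was added to TET1 values that carried the GAPDH constant, which shifts low genes downward against abundant ones. The 500 genes nearest in expression to CALR and DNAJB9 had medians of 0.15 and -0.02 in HeyC2, and of -0.34 and 0.22 in SKOV3. The part of the added 1 in these medians was not tested. The depth, estimated from the spacing of low values, was 6430000 to 7230000 fragments per library. Intervals of relative changes are 95% Clopper-Pearson intervals of the estimated fragments, which cover counting error only. TET1 itself was at 0.20 FPKM without and 0.52 FPKM with the TET1 plasmid in HeyC2, and at 0.43 and 1.80 FPKM in SKOV3. Below, 2 values of a line are always given with the control first.

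The ovarian epithelial labels were compared with marker genes. KRT8, KRT18 and PAX8 were expressed in all 4 libraries, whereas MUC16 and WT1 were below 1 FPKM in all 4 and CDH1 was at 0 in both HeyC2 libraries. The SKOV3 libraries differed widely in keratins: KRT7 was at 1537 FPKM in the control and 22.0 in TET1, and KRT19 at 255 and 0.46 FPKM. Over all 10 epithelial and ovarian markers, 5 and 6 were at 1 FPKM or more in HeyC2 and 8 and 7 in SKOV3, and their summed level was 8768 and 5013 FPKM in HeyC2 and 3861 and 2041 FPKM in SKOV3. Most of the HeyC2 sum was VIM, a mesenchymal gene, at 7496 and 2927 FPKM, and without it the other 9 summed to 1272 and 2086 FPKM in HeyC2 and to 2637 and 1207 FPKM in SKOV3. KRT7 was at 290 and 1125 FPKM in HeyC2. Of 7 blood and endothelial markers, 6 were below 1 FPKM in every library. The other was CDH5, at 18.9 and 94.6 FPKM in HeyC2 and at most 0.19 FPKM in SKOV3, and the list summed to 19.9 and 95.2 FPKM in HeyC2 and to 0.81 and 0.97 FPKM in SKOV3. Whether each library came from the culture its label names was not tested, and neither was the part of these differences in the results below.

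In all 4 libraries CALR was the most abundant member and DNAJB9 the least, followed upward by DNAJC3. The levels are given as TPM (FPKM rescaled to the same sum in each library), which no constant factor can change. CALR was at 739 and 957 TPM in HeyC2 and at 1626 and 804 TPM in SKOV3. DNAJB9 was at 10.5 and 6.41 TPM in HeyC2 and at 5.92 and 11.3 TPM in SKOV3. The places between them were less settled. HSPA5 had rank 3 in the HeyC2 control and the SKOV3 TET1 library and rank 4 in the others, and PDIA6 had ranks 4 and 2 in HeyC2 and 3 and 4 in SKOV3. Of the FPKM summed over all genes, the 10 members took 0.272% and 0.304% in HeyC2, and 0.358% and 0.298% in SKOV3. Their sum was thus a slightly larger part of the transcriptome in HeyC2 TET1 and a smaller part in SKOV3 TET1 than in the control.

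**Figure D2:**
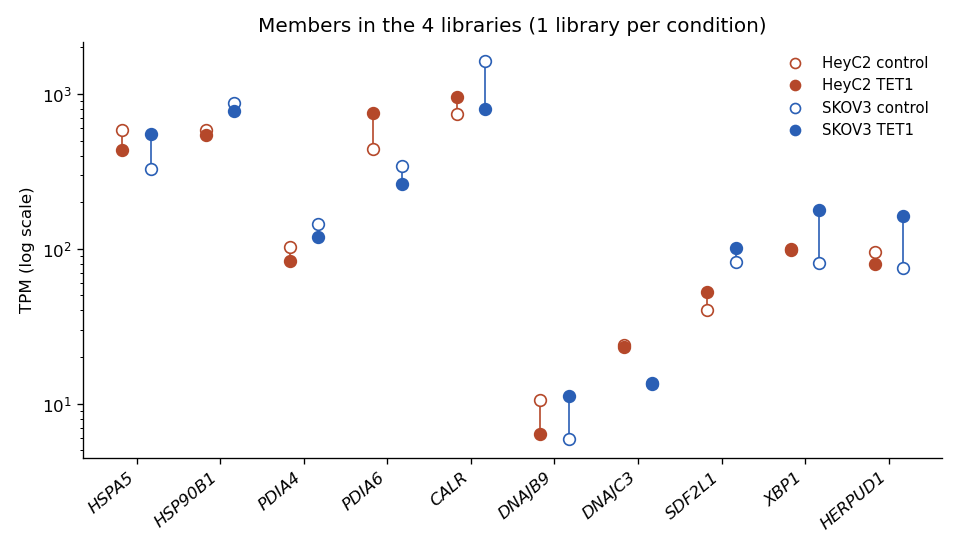
TPM of each member (log scale) in the 4 libraries, control as open and TET1 as filled circles, HeyC2 in red and SKOV3 in blue, 1 library per point with no error bar. The pairs of PDIA6 and CALR point upward in HeyC2 and downward in SKOV3, and those of HSPA5, DNAJB9 and HERPUD1 the other way.

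As a group the members did not stand apart from other genes in either line. Their median relative change was 0.04 on the log2 scale in HeyC2 and -0.08 in SKOV3, beside 0 for all genes by construction. In HeyC2, 1 of 10 members was at least 1.5-fold higher in TET1 relative to the median gene, against 13.0% of all genes, and 1 was at least 1.5-fold lower, against 12.9%. In SKOV3, 2 members were higher, against 20.6% of all genes, and 2 were lower, against 17.9%. In either direction these were 2 of 10 members in HeyC2, where 25.9% of all genes passed, and 4 of 10 in SKOV3, where 38.6% did. These shares are near the background, so the members are described one by one. In 7 of the 10 the sign of the relative change differed between the lines, as it did in 47.5% of the genes compared in both, and 5 passed 1.5-fold in neither line, beside 50.1% of genes. Of the 7, HSP90B1 and DNAJC3 were so near 0 in HeyC2 that their sign held in only 2 of 7 other ways of centring and filtering. The counting intervals of HERPUD1 in HeyC2 and of DNAJB9 in SKOV3 included 0, so their signs were not settled either. The number past 1.5-fold in the same direction in both lines was 0, against 3.58% of genes for higher and 2.73% for lower. With the lines as pairs, which leaves 1 residual degree of freedom, limma called 0 of 10 members and 0 of 11888 genes (0%) at an adjusted p of 0.05, and at an unadjusted p of 0.05 it called 0 members and 796 genes. The lowest adjusted p of a member was 0.876, for XBP1, whose mean relative change over the lines was 0.52 ± 0.37 (SE, n = 2 lines).

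Of the 2 disulphide isomerases among the members, PDIA6 differed more. It was at 212 FPKM in the HeyC2 control and 380 FPKM in HeyC2 TET1, and at 163 and 119 FPKM in the SKOV3 libraries. The relative log2 change was 0.92 in HeyC2 (interval 0.86 to 0.98), or 1.89-fold higher, and -0.61 in SKOV3 (interval -0.70 to -0.52), or 1.53-fold lower. The SKOV3 value lay just past the limit of 1.5-fold, and it stayed past it in 3 of 7 other ways of centring and filtering, with a range of -0.68 to -0.27. PDIA6 was the only member past 1.5-fold in opposite directions in the lines, higher in HeyC2 and lower in SKOV3. The same pattern was held by 2.08% of the 11888 genes compared in both, and the reverse pattern, held by 2.31%, was found in 0 members. PDIA4, the other isomerase, was at 49.6 and 42.0 FPKM in HeyC2 and at 68.8 and 54.2 FPKM in SKOV3. Its relative changes were -0.17 and -0.50, lower in both lines and short of 1.5-fold.

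CALR, the lectin chaperone, had the same signs as PDIA6. It was at 356 FPKM in the HeyC2 control and 484 FPKM in TET1, a relative log2 change of 0.52 (interval 0.47 to 0.58), just short of the 1.5-fold limit of 0.58. In SKOV3 it was at 769 and 366 FPKM, a relative change of -1.23 (interval -1.28 to -1.18), or 2.35-fold lower. This was the largest change of any member in either line, which placed CALR at percentile 3.84 of the genes compared in SKOV3. The SD of the relative change over the 500 genes nearest to CALR in expression was 0.74 in SKOV3, and those genes had a median of -0.34, against which CALR was at -0.89. As deposited, with the GAPDH factor, the TET1 values of CALR were 1567 FPKM (HeyC2) and 493 FPKM (SKOV3).

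The large chaperones differed less. HSPA5, the central Hsp70 of the ER, was at 283 and 221 FPKM in the HeyC2 libraries and at 156 and 252 FPKM in the SKOV3 libraries. Its relative log2 change was -0.27 in HeyC2 (interval -0.32 to -0.22) and 0.53 in SKOV3 (interval 0.47 to 0.59), so it was lower in TET1 in the former line and higher in the latter, without passing 1.5-fold in either. Against the 500 genes nearest in expression the SKOV3 value was 0.85, past that limit. HSP90B1, the Hsp90 of the ER, was at 283 and 276 FPKM in HeyC2 and at 413 and 354 FPKM in SKOV3. Its relative change was 0.04 in HeyC2, where the interval of -0.02 to 0.10 included 0, and -0.38 in SKOV3, where it was at -0.04 against the 500 genes nearest in expression. Its pseudogene HSP90B2P, with which reads could be shared, was listed at 0 in 3 libraries and at a deposited 0.23 FPKM in SKOV3 TET1.

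DNAJB9 and DNAJC3 were the least expressed members, and the third cochaperone, SDF2L1, ranked 8 except in the SKOV3 control, where it ranked 6. DNAJB9, a J-domain protein that acts with HSPA5, was at 5.08 and 3.24 FPKM in HeyC2 and at 2.80 and 5.13 FPKM in SKOV3, which correspond to only about 83, 48, 44 and 74 fragments. Its relative change was -0.69 in HeyC2 (interval -1.24 to -0.16), or 1.62-fold lower, and 0.47 in SKOV3 (interval -0.09 to 1.04). The SKOV3 interval included 0, and the direction there was not set by these counts. DNAJC3 (p58IPK) was at 11.6 and 11.8 FPKM in HeyC2 and at 6.34 and 6.23 FPKM in SKOV3, and both its relative changes, 0.03 and -0.23, had intervals that included 0. An antisense gene, DNAJC3-AS1, was listed beside it at up to 3.85 deposited FPKM, and whether the counting used strand is not given in the sources used here. SDF2L1, a small ER protein that works with the HSPA5 complex, was at 19.4 and 26.7 FPKM in HeyC2 and at 39.1 and 46.1 FPKM in SKOV3. Its relative change was 0.49 (interval 0.09 to 0.89) in HeyC2 and 0.07 in SKOV3.

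The 2 members that are not lumenal folding factors were higher in SKOV3 TET1. XBP1, the transcription factor, was at 47.6 and 50.6 FPKM in HeyC2 and at 38.3 and 80.6 FPKM in SKOV3. Its relative log2 change was 0.15 in HeyC2, where the interval of -0.02 to 0.32 included 0, and 0.89 in SKOV3 (interval 0.72 to 1.06), or 1.85-fold higher. FPKM are summed over the gene, so the spliced and unspliced forms of its mRNA cannot be told apart. HERPUD1, a membrane protein of ER-associated degradation, was at 46.2 and 40.6 FPKM in HeyC2 and at 35.7 and 73.8 FPKM in SKOV3. Its relative change was -0.12 in HeyC2, with an interval that included 0, and 0.86 in SKOV3 (interval 0.726 to 0.998), or 1.82-fold higher. Both genes stayed past 1.5-fold in SKOV3 in all 7 other ways of centring and filtering. The SD of genes of like expression was 0.76 for XBP1 and 0.73 for HERPUD1, so each lay little more than 1 SD from 0. Against the median of those genes, XBP1 was at 1.15 and HERPUD1 at 1.13.

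**Figure D3:**
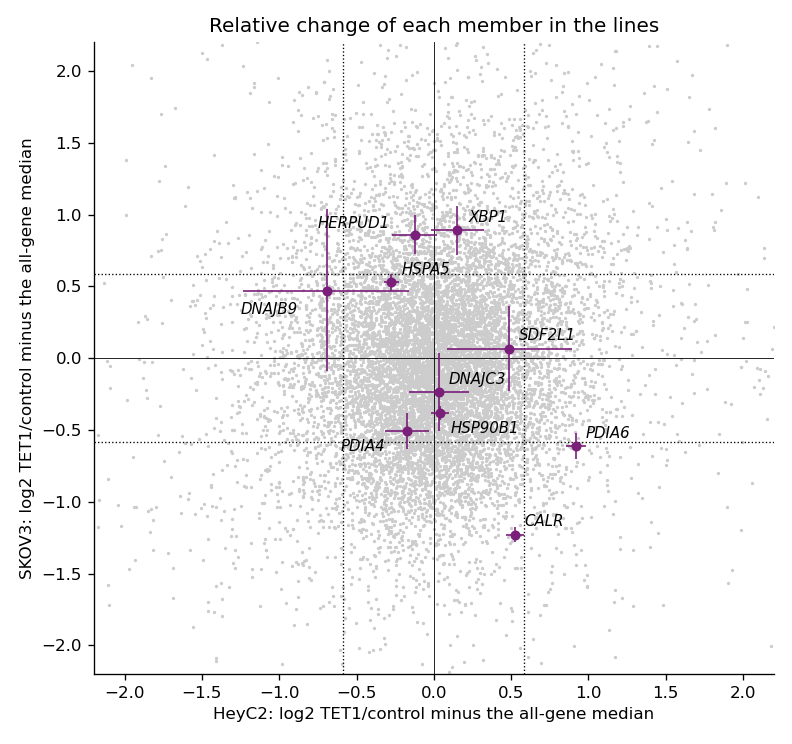
Relative log2 change of each member (purple, with 95% counting intervals) in HeyC2 (horizontal) and SKOV3 (vertical) over all genes compared in both lines (grey; 220 of 11888 genes lie beyond the axes). Dotted lines mark 1.5-fold; PDIA6 and CALR lie at the lower right, and HERPUD1 and XBP1 above the upper dotted line.

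Counting error alone left out 0 for 6 members in HeyC2 and for 7 in SKOV3, since most members had many fragments, up to 9399 for CALR in the SKOV3 control. The spread between cultures was not measured. An SD was taken over the 500 genes nearest to each member in expression. Further from 0 than 1 SD lay 2 members in HeyC2 (PDIA6 and DNAJB9) and 3 in SKOV3 (CALR, XBP1 and HERPUD1). Measured from the median of the 500 nearest genes instead, 1 did in HeyC2 (PDIA6) and 4 in SKOV3 (CALR, HERPUD1, HSPA5 and XBP1). The shares of all genes past 1 SD, or with a counting interval that leaves out 0, were not counted. These counts of members thus have no background beside them.

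The change in SKOV3 minus that in HeyC2 ordered the members by how far the lines differed. It was -1.75 for CALR and -1.53 for PDIA6, and -0.42 to -0.27 for SDF2L1, HSP90B1, PDIA4 and DNAJC3. It was 0.74 for XBP1, 0.80 for HSPA5, 0.99 for HERPUD1 and 1.16 for DNAJB9. With 1 library per condition these differences were not tested.

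Ratios between members within a library do not depend on any scaling. The ratio of HSPA5 to CALR was 0.793 in the HeyC2 control and 0.456 in HeyC2 TET1, while in SKOV3 it was 0.202 and 0.688. HSPA5 thus came closer to the CALR level in SKOV3 TET1 and lay further below it in HeyC2 TET1. The ratio of XBP1 to PDIA6 was nearly equal in the controls, at 0.224 in HeyC2 and 0.235 in SKOV3, but 0.133 in HeyC2 TET1 and 0.676 in SKOV3 TET1. The ratio of HERPUD1 to PDIA4 was 0.933 and 0.966 in the HeyC2 libraries and 0.519 and 1.36 in the SKOV3 libraries. These ratios restate the relative changes of their members without the scaling, and are no separate evidence.

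The other genes of ER folding and quality control came from lists written from general knowledge. Counts past 1.5-fold in each list stand beside 13.0% of all genes higher and 12.9% lower in HeyC2, and 20.6% and 17.9% in SKOV3. Among 14 other ER chaperones and cochaperones the median relative change was 0.32 in HeyC2, where 2 genes were at least 1.5-fold higher and 0 lower, and -0.08 in SKOV3, where 0 were higher and 1 lower. CNPY2 and CNPY3 were the highest in HeyC2, with 0.82 and 0.65 in HeyC2 and 0.26 and 0.07 in SKOV3. CANX, the membrane-bound partner of calreticulin, was at -0.34 and -0.40, and SEC63, a J-domain protein of the translocon, at -0.13 and -0.89. HYOU1, a nucleotide exchange factor of HSPA5, was at -0.17 and -0.09, and SIL1, of the same list, at 0.35 and 0.19.

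Among 14 other disulphide isomerases and oxidases, 1 was higher and 0 lower in HeyC2, and 1 was higher and 4 lower in SKOV3. PDIA5 was at 1.18 and 0.45, and ERO1B, an oxidase, at -0.09 and 1.01. The oxidase ERO1A, which reoxidises the isomerases, was at -0.32 and -1.05, and QSOX1 at -0.03 and -0.93. P4HB, the archetypal disulphide isomerase, was at 0.16 in HeyC2 and -0.71 in SKOV3. The 7 peptidyl-prolyl isomerases had medians of 0.22 and 0.52, with 1 gene higher in HeyC2 and 3 in SKOV3. These 3, FKBP7, FKBP10 and FKBP14, were low in the SKOV3 control, at 1.39, 0.21 and 2.35 FPKM, and among genes that averaged 5 FPKM or more the SKOV3 median was 0.071.

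The 13 genes of N-glycan processing had medians of 0.13 and -0.13, and the 16 genes of translocation and signal peptide processing 0.02 and -0.15. Against genes of like expression both SKOV3 medians were positive, at 0.13 and 0.067. Of the 18 genes for KDEL receptors, which return lumenal chaperones to the ER, and for the COPII coat, 1 passed 1.5-fold upward in each line, and 0 in HeyC2 and 3 in SKOV3 (SEC31A, SEC24A and SEC23B) passed it downward. The higher gene was KDELR3 in both lines, with 0.73 in HeyC2 and 0.62 in SKOV3, and 3.58% of all genes were higher in both lines. Of the genes of ER-associated degradation, 22 could be compared in HeyC2 and 23 in SKOV3. In HeyC2, 2 were higher and 2 lower, and in SKOV3 7 were higher and 3 lower. The SKOV3 counts were 30.4% and 13.0% of the list, beside 20.6% and 17.9% of all genes. OS9 and EDEM2, which select misfolded glycoproteins, were at 0.16 and 0.42 in HeyC2 and at 0.92 and 0.88 in SKOV3. VCP and UFD1L, which extract them from the membrane, were at -0.56 and -0.86 in HeyC2 and at -0.69 and -0.54 in SKOV3.

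Of the stress sensors and related factors, 9 passed the filter in each line. ERN1, the kinase and nuclease that splices XBP1 mRNA, was at -1.03 in HeyC2 and 0.12 in SKOV3, at 2.83 and 1.46 FPKM in the HeyC2 libraries. EIF2AK3 was at -0.09 and 0.13, and ATF6 at 0.05 and 0.31. The genes of the PERK and ATF4 branch had the widest contrast between the lines of any list examined here. Their median was -0.64 in HeyC2, with 0 of 10 higher and 5 lower, and 1.52 in SKOV3, with 8 higher and 1 lower. Whether PERK activity had a part in this contrast was not tested. CHAC1, an enzyme of glutathione breakdown, was at 3.49 and 1.70 FPKM in HeyC2 and at 2.84 and 46.0 FPKM in SKOV3, and DDIT4 was at 49.5 and 40.7 FPKM and at 43.5 and 276 FPKM. PPP1R15A, the phosphatase subunit that reverses PERK signalling, was lower in both, at -0.52 and -0.97. Of the members, 4 of 10 had a higher relative change in SKOV3 than in HeyC2, as did 47.1% of the genes compared in both.

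Chaperones of other compartments were set beside the members. Of 13 cytosolic heat shock chaperones, 4 were at least 1.5-fold lower in HeyC2 and 8 in SKOV3. Over all genes, 12.9% were lower in HeyC2 and 17.9% in SKOV3. The medians of the cytosolic list were -0.33 and -0.84, and -0.36 and -0.54 against genes of like expression. HSPA1A was at -0.75 and -1.22, BAG3 at -0.67 and -0.74, and HSPB1, the only one past 1.5-fold upward, at -0.18 and 1.15. Of 8 mitochondrial chaperones and proteases, 1 was lower in HeyC2 and 5 in SKOV3. Their medians were -0.29 and -0.63, and -0.40 and -0.31 against genes of like expression. HSPE1 was at -0.31 and -0.99. The medians of these lists were lower than those of the ER members in both lines, and this difference was not tested.

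**Figure D4:**
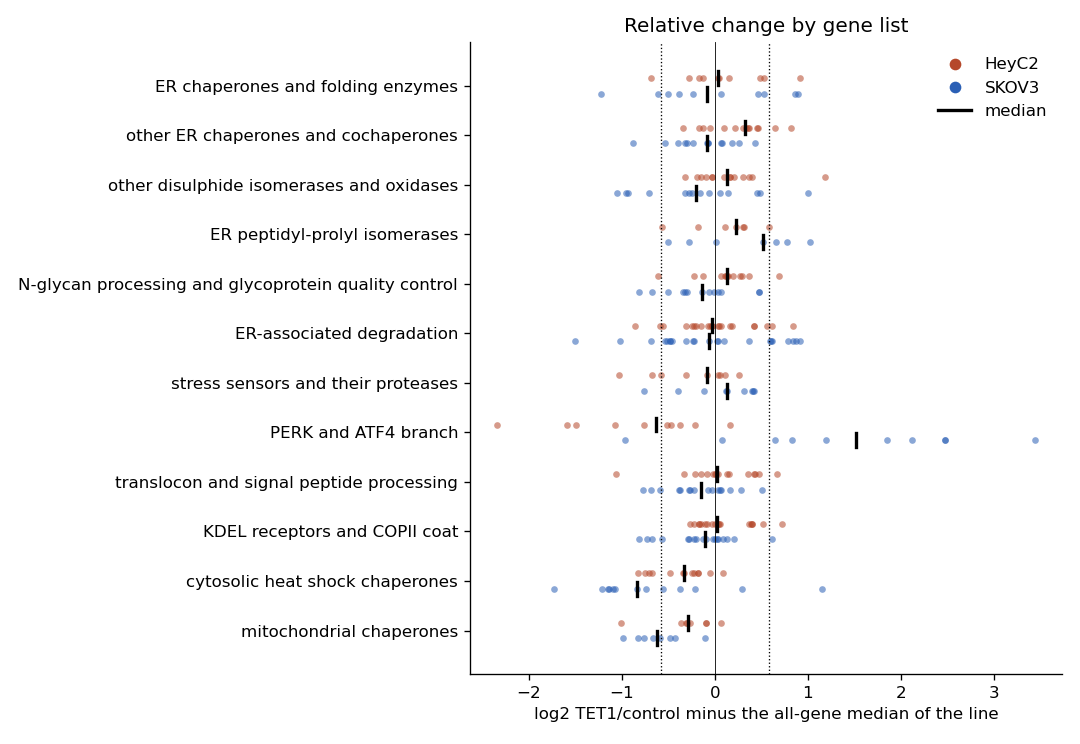
Relative log2 change (horizontal axis) of each gene of 12 lists in HeyC2 (red) and SKOV3 (blue), with black bars for the median and dotted lines at 1.5-fold. The ER lists straddle 0 in both lines, the PERK and ATF4 branch lies at -0.64 in HeyC2 and 1.52 in SKOV3, and the medians of cytosolic and mitochondrial chaperones lie below 0.

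The 7 members with an ERSE or ERSE-II ranged from -0.27 to 0.92 in HeyC2 and from -1.23 to 0.89 in SKOV3, with medians of 0.15 and 0.07. The members at both ends in SKOV3, CALR and XBP1, each had an ERSE. The 3 members without a match ranged from -0.69 to 0.03 in HeyC2 and from -0.50 to 0.47 in SKOV3, with medians of -0.17 and -0.23. Among them, DNAJB9 and DNAJC3 were the least expressed members, and the part of expression level in these medians was not tested. The ranges of members with and without an exact match overlapped in both lines. Of the 37 other genes with such an element, 23 passed the filter in HeyC2, with a median of -0.01, and 22 in SKOV3, with a median of -0.05. They included CANX and HYOU1. A match in these windows is a match of letters and not a measure of binding.

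The 10 genes whose pair of relative changes lay nearest to the members' medians were TJP1, SRP19, MAP4K3, OST4, APH1A, POLL, LAMP2, C9orf114, CEP89 and TRUB2. Their distances from it were 0.00821 to 0.0242 on the log2 scale, over 2 changes and 6931 genes that averaged 10 FPKM or more in each line. Since the medians were near 0, these are genes close to the median gene in both lines.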

How the data were processed

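RNA-seq of HeyC2 and SKOV3 cells was used, with 1 library per condition and line. The authors sequenced TruSeq libraries as paired ends, aligned them to hg19 with Bowtie2 2.2.6 and quantified them with RSEM 1.2.17 according to the submitters' processing notes, and the values they deposited are FPKM, 1 table per line. The annotation and any filter are not given in the sources used here. The values show that the TET1 columns were multiplied by a constant: 100% (HeyC2) and 99.9% (SKOV3) of different values up to 40 FPKM fell on multiples of 0.01 times 3.23 or 1.35. This scaling raises every deposited TET1 value and sets GAPDH to no change.

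From the deposited FPKM, log2 ratios with a pseudocount of 1 were centred on the median of genes that averaged 1 FPKM or more. They understate changes of low genes and, since TET1 values carried the GAPDH constant, shift low genes downward. FKBP7 in HeyC2, at 2.67 and 2.75 FPKM, had a relative change of -0.18. Called means past 1.5-fold after centring, and no p-value was computed within a line. Over both lines, limma 3.58.1 in R 4.3.3 tested the mean of the 2 relative changes of each gene against 0, with Benjamini-Hochberg adjustment, a test added after the data were seen. Fragments were estimated from the recovered depth and the length of the canonical GENCODE transcript on GRCh37 less 150 bases, and are approximate. In all, 23966 of 26506 symbols (90.4%) matched the annotation. The calculations were tested on simulated data.

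The members and lists were chosen with earlier results of these data known. Genes of the lists could be named when past 1.5-fold in the same direction in both lines, or among the 2 highest and 2 lowest by mean change. Not every gene that met this rule is named. CRYAB and HSPA1B, both past 1.5-fold downward in both lines, are among those left out. The genes nearest the members' medians and copies or antisense genes of members were named too. Further genes were chosen after their values were seen, among them P4HB, HYOU1, SIL1, EIF2AK3, ATF6 and those with opposite calls in the lines. The ratios between members were likewise chosen after their values were seen. Symbols replaced since, such as ERO1L by ERO1A, were linked through a RefSeq table. The tools were numpy 2.4.6, pandas 2.3.3, scipy 1.17.1 and matplotlib 3.10.9 under Python 3.11.15.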

Additional observations from a re-analysis of the deposited data

Results flagged for a closer look

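Each gene here was at least 1.5-fold higher in 1 line and at least 1.5-fold lower in the other, relative to the median gene. The values are the relative log2 change in SKOV3 minus that in HeyC2, and the difference was not tested, since each condition has 1 library. Among the members this was PDIA6, with -1.53. Among the other ER genes it was STT3A, a catalytic subunit of the oligosaccharyltransferase, with -1.51 (0.69 in HeyC2 and -0.82 in SKOV3). In the PERK and ATF4 branch it was DDIT3 with 2.79, TRIB3 with 3.62, CHAC1 with 4.52, ASNS with 4.83 and SESN2 with 2.61. ASNS, which makes asparagine, was at 22.2 and 3.99 FPKM in HeyC2 and at 9.61 and 65.4 FPKM in SKOV3, control first and with the GAPDH factor removed from TET1. DDIT3 (CHOP) was at 25.8 and 8.08 FPKM and at 34.4 and 89.8 FPKM.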

How the results depend on the processing

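The test paired by cell line, a replicate block of 2 pairs added after the data were seen, called 0 of 10 members (limma, adjusted p from 0.876), and no fit without the block was made. Limits are set by 1 library per condition and by depth, mainly for DNAJB9. The cause of a change under an alternative was not tested, except that settings without centring keep the shift of all genes, 1.61 in HeyC2 and 0.59 in SKOV3 as deposited.

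The members' median of 0.04 in HeyC2 was 1.65 as deposited, 0.18 with no filter on low values and 0.045 after a GC and length correction. Its sign did not hold in the other settings. It was -0.079 and -0.094 with pseudocounts of 0.1 and 0.01, -0.093 with TPM and -0.090 with upper-quartile scaling. With a mean FPKM of at least 5 it was -0.021, before the GAPDH scaling -0.006, and -0.067 when centred on genes of like expression. That of -0.08 in SKOV3 was 0.50 as deposited, 0.11 before the GAPDH scaling and 0.080 when centred on genes of like expression. It was also positive with no filter on low values, at 0.040, and with upper-quartile scaling, at 0.016. The sign of the SKOV3 median thus did not hold either. As deposited, 10 members were higher and 0 lower in HeyC2, and 5 higher and 1 lower in SKOV3, and DNAJB9 in HeyC2 reversed to 0.92. Of 1 member higher and 1 lower in HeyC2, no filter gave 3 and 0, thresholds of 2-fold 0 and 0 and of 1.2-fold 3 and 2, and 0 were lower before the GAPDH scaling. Of 2 and 2 in SKOV3, no filter, upper-quartile scaling and FPKM before the GAPDH scaling each gave 4 and 1, and thresholds of 2-fold 0 and 1 and of 1.2-fold 4 and 4. Only 1 was lower with a mean FPKM of at least 5, with centring on genes of like expression and after a GC and length correction. Shares of all genes are given only for 1.5-fold in the main setting, so the counts at other settings have no background beside them.

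Over all genes, 13.0% were higher and 12.9% lower in HeyC2. Of the 144 genes of the 11 other lists that passed the filter there, 9 were higher and 16 lower. As deposited these were 138 and 1. The number higher was 4 and 3 with pseudocounts of 0.1 and 0.01, 14 with no filter, 3 with TPM and with upper-quartile scaling and 4 when centred on like genes. Thresholds of 2-fold gave 1 and 7 and of 1.2-fold 35 and 35. In SKOV3, 20.6% of all genes were higher and 17.9% lower, and of 145 list genes 21 were higher and 31 lower. As deposited these were 60 and 3, and 20 were lower before the GAPDH scaling. Thresholds of 2-fold gave 9 and 9 and of 1.2-fold 35 and 61. When centred on genes of like expression, the median changed sign in 3 of the 11 lists in HeyC2 and in 7 in SKOV3, and the PERK and ATF4 branch, at -0.74 and 1.63, was not among them.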
